A study of Mus musculus with 6 samples.

Results

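Guidance genes encode the ligands and receptors first known for steering growing axons, and here they are 70 of the 23337 gene rows counted by RNA sequencing in sinusoidal endothelial cells from mouse liver. The members are the semaphorins of classes 3 to 7 and their plexin receptors, the ephrins and their Eph receptors, Slit and Robo, netrins and Unc5 receptors, and the FLRT proteins, taken by gene symbol; the rule uses no measured value, but these families were chosen with earlier results of these data known. Of the 70 rows, 57 had at least 10 reads in at least 3 libraries and were tested, and 13 fell under that minimum. One row, Unc5cl, carries the family's name but is not a netrin receptor.

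The study set 3 control libraries (replicates 2, 3 and 4, cells left unstretched) against 3 stretch libraries (replicates 1, 2 and 4, cells rhythmically stretched by 4% at 1 Hz with a Flexcell device, which pulls on the membrane under them). Cells of both groups were isolated from liver with antibody-coated magnetic beads, grown in medium with serum, plated on collagen IV and then deprived of serum. The sources used here do not give the duration of stretch, the mouse strain and age, or whether each replicate was a separate isolation, so p-values measure only the spread between these libraries.

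In vessels the same molecules control whether endothelial cells attract, repel or cross each other. Ephrin-B2 on arterial and EphB4 on venous endothelium set the border between the vessel types, Sema3E acts on plexin D1 to repel sprouts, and Robo4 and Unc5B are receptors of the endothelial surface that can bind each other. Ephrins and most semaphorins of classes 4 to 7 are held in the membrane, so ligand and receptor can meet between neighbouring cells of one sheet, and the receptors act mainly on the actin cytoskeleton.

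Total gene counts were 48948948 to 57923937 in control and 58503669 to 68489956 in stretch libraries, so 10 reads correspond to 0.147 to 0.198 CPM (counts scaled to library size with TMM factors). Pan-endothelial markers such as Cdh5 and Pecam1 were abundant in all 6 libraries, their sum lying between 8020.2 and 9556 CPM. After stretch 6 of 10 were lower (Egfl7, Eng, Erg, Kdr, Tek and Tie1) and 0 higher, and Cdh5 and Pecam1 were not among the 6. The 16 sinusoidal markers summed to between 9308 and 10634 CPM without stretch and between 6979 and 8201 CPM with stretch, and of the 15 tested 10 were lower and 1 was higher. Over all genes tested 22.5% were lower and 21.3% higher by the same test, which is given below. Transcripts of other liver cells moved with the groups: the 15 hepatocyte markers summed to 88.1 to 108.8 CPM without stretch and 141 to 643 CPM with stretch (643 in stretch replicate 1), 15 macrophage markers to 112 to 120.5 and 145 to 180.2 CPM, and 6 cholangiocyte markers to 88.1 to 115 and 152 to 181 CPM. Their part in the results below was not tested. Of 9 lymphocyte markers, Cd3d, Cd8a, Ms4a1 and Nkg7 had no read and the list summed to at most 0.391 CPM, and 17 stellate cell and fibroblast markers had overlapping sums (121 to 136 and 95.6 to 157 CPM).

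Stretched cells held more of the receptors Plxnd1, Epha2 and Unc5b and of the ligands Efnb2 and Sema6d, and less of Flrt2, Sema6a, Ephb4, Robo4, Robo1, Ntn4 and Efna1. Of the 57 tested members, 9 rose, 15 fell and 33 did not pass an adjusted p of 0.05 in edgeR's quasi-likelihood test with Benjamini-Hochberg adjustment over all 14274 genes tested. Over all of those genes 43.8% passed, 21.3% as higher and 22.5% as lower, so the members' 42.1% (15.8% higher and 26.3% lower) is near the background. The counts of single families below stand beside the same shares. Each family holds only 2 to 12 tested genes, and no family was tested as a set. The median log2 fold change of stretch over control (log2 change below) was 0.022 for the members and -0.015 for all genes tested. With library sizes alone as scaling, 9 members passed as higher and 16 as lower, beside 14.7% and 30.1% of all genes (44.8% in all). The median log2 change was then -0.066 for the members and -0.1065 for all genes tested. Without stretch replicate 1, the library with the most hepatocyte transcripts, 9 passed as higher and 16 as lower, beside 18.7% and 19.6% (38.3% in all). Fewer cells of a type and less RNA per cell cannot be told apart in these bulk libraries.

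Most changes were modest: 18 of the 24 members that passed changed by less than 2-fold, 2 rose and 4 fell by more. Over all genes tested, 4.58% passed with a change of at least 2-fold, 2.45% as higher and 2.13% as lower. In 29 of the 57 tested members the 3 stretch CPM values lay wholly above or wholly below the 3 control values. This held for 55.7% of all genes tested. The 29 were all 24 that passed and 5 that did not (Sema4d, Sema4f, Sema4g, Ephb2 and Plxnb3). Of 23 receptors tested 14 passed (60.9%), as did 10 of 34 ligands with the FLRT genes counted among them (29.4%), and the difference between these shares was not tested. Of 30 members with a mean of at least 1 RPKM (the deposited level, scaled to coding length and library), 20 passed (66.7%), as did 52.5% of all such genes, and of 27 members under 1 RPKM 4 passed (14.8%), as did 16.1% of all such genes.

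**Figure D1:**
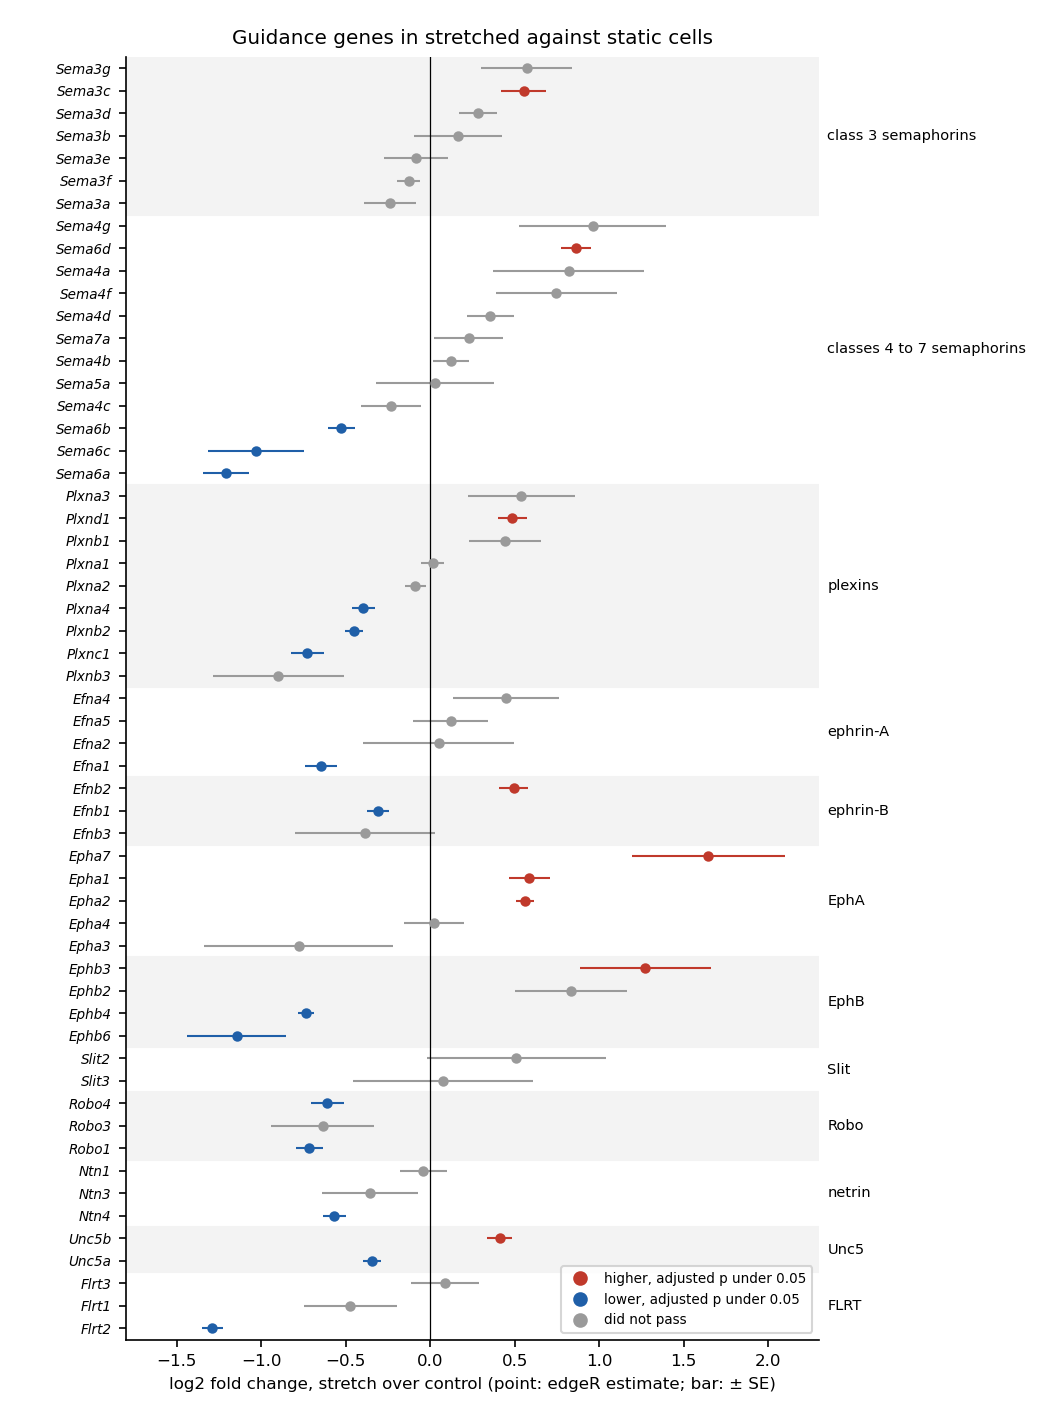
Log2 fold change of stretch over control for the 57 tested guidance genes, grouped by family; points are edgeR estimates, bars are ± SE, and colours mark the 9 that rose, the 15 that fell and the 33 that did not pass. The EphA receptors that passed lie right of 0, the Robo receptors and FLRT members that passed lie left of it, and the semaphorins, plexins, EphB and Unc5 receptors lie on both sides.

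Promoter sequence was available for 60 of the 70 symbols in RefSeq's GRCm38.p6 table (76 windows, since some genes have several starts), and not for Efnb3, Flrt1, Ntn1, Plxna1, Plxna4, Sema3b, Sema3f, Sema6a, Slit1 and Unc5d. The 250 bases before each start were searched on both strands for the AP-1 motif TGANTCA, the E-box CACGTG and the letters GGAATG, the core bound by TEAD factors, the DNA-binding partners of YAP and TAZ. The TEAD letters lay in 4 of the 11 windows of the 9 genes that rose (36.4%), in 0 of 17 windows of the 13 matched genes that fell and in 4 of 34 windows of genes that did not pass (11.8%), against 12.6% of all 32851 windows in the table. AP-1 letters lay in 0 of 11 and 1 of 17 windows of the genes that rose and fell, against 6.75% of all windows, and the E-box in 1 of 11 and 1 of 17, against 6.02%. These are small counts of letter matches, given as a description with no test. Of all 76 member windows 8 (10.5%) had the TEAD letters, and 4 of these belong to Epha3, Ntn3, Plxnb1 and Sema4a, which did not pass. The other 4 windows are shown because they belong to 4 genes that rose, an ephrin, a plexin and 2 Eph receptors. They were picked after the matches were seen; each runs 5′ to 3′ along the gene's strand and ends at the base before the start, and capitals mark GGAATG or its reverse complement CATTCC:
Efnb2, chr8:8661243-8661492, minus strand: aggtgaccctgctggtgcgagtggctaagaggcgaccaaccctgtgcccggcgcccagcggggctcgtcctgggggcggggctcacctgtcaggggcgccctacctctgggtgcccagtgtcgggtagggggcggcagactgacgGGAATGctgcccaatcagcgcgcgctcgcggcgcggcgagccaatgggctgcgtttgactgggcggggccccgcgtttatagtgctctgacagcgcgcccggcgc
Epha1, chr6:42373269-42373518, minus strand: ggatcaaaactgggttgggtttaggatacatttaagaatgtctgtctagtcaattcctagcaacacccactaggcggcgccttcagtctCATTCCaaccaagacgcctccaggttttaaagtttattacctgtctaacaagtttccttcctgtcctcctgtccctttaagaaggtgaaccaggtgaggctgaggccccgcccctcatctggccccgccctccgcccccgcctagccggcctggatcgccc
Epha2, chr4:141300971-141301220, plus strand: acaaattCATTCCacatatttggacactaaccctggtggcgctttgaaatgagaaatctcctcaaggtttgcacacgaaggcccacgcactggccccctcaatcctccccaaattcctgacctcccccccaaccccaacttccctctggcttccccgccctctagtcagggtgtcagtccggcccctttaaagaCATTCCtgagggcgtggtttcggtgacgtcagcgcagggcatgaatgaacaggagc
Plxnd1, chr6:115995006-115995255, minus strand: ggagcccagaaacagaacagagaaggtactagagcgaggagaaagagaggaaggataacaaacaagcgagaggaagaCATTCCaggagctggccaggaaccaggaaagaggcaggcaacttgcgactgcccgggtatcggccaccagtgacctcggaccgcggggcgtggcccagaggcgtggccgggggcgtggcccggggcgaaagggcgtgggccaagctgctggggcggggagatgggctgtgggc
The first base of the match lay at -105 in Efnb2, -161 in Epha1, -243 and -56 in Epha2 and -173 in Plxnd1, counted back from the start, and none overlapped another searched motif. The RefSeq start of Efnb2 lies outside the span that the deposited table gives for the gene (chromosome 8, 8617439 to 8660773).

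Class 3 semaphorins are secreted and act through neuropilins and plexins. Of the 7, all tested, 1 rose, 0 fell and 6 did not pass, with a median log2 fold change of 0.16. Sema3c (chromosome 5, 17574816 to 17730267) rose 1.47-fold. It was at 8.14, 10.04 and 9.34 CPM in the control and 12.8, 16.01 and 11.5 CPM in the stretch libraries, a log2 change of 0.55 ± 0.14 (SE; edgeR adjusted p = 0.011), and it did not pass against a minimum change of 1.2-fold (glmTreat adjusted p = 0.0614). Its highest control and lowest stretch library were close, and the gap between the groups was smaller than the spread among the stretch libraries. Sema3f, a ligand of neuropilin-2 and the most abundant of the class at 34.1 RPKM over the 6 libraries, made up 84.5 ± 0.957% of the class in control and 81.1 ± 1.32% in stretch libraries (share of summed RPKM, mean ± SD, n = 3 per group). At 127, 121 and 143 CPM without stretch and 126, 118 and 113 CPM with stretch its groups overlapped (log2 change -0.13 ± 0.069, edgeR adjusted p = 0.164). It passed as lower with library sizes alone (adjusted p = 0.0332) and with the replicate block (adjusted p = 0.0248). The block gives each replicate number its own term, so only replicates 2 and 4, which both groups have, inform its group effect.

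The other 5 were scarcer. Sema3a, the neuropilin-1 ligand that collapses axon tips, was at 13.9 ± 1.73 CPM without stretch and 11.8 ± 2.54 CPM with stretch (mean ± SD, n = 3 per group). With an adjusted p of 0.244 in edgeR it missed the threshold, and it passed as lower without stretch replicate 1 and with the replicate block (adjusted p = 0.0264 and 0.00819). Sema3g, known from arterial endothelium, was at 2.01, 1.78 and 2.13 CPM without stretch and 1.94, 4.12 and 2.72 CPM with stretch. With all libraries its adjusted p in edgeR was 0.123, and it passed as higher without stretch replicate 1 and with the replicate block (adjusted p = 0.0208 and 0.0441). Sema3d had a log2 change of 0.28 ± 0.11 (edgeR adjusted p = 0.0735), and passed as higher with DESeq2 and without control replicate 2 or stretch replicate 4 (adjusted p = 0.0491, 0.0473 and 0.0322). Sema3b and Sema3e, the ligand that binds plexin D1 without a neuropilin, had log2 fold changes of 0.16 ± 0.26 and -0.086 ± 0.19, whose signs changed when single libraries were left out. Sema3a, Sema3c, Sema3d and Sema3e lie on chromosome 5 between 12383166 and 17730267, and only Sema3c of these 4 passed with all libraries.

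Of the membrane-bound semaphorins of classes 4 to 7, 13 in all and 12 tested, 1 rose, 3 fell and 8 did not pass, and the 4 that passed were the 4 members of class 6. Class 6 semaphorins signal to class A plexins and can also act as receptors themselves. Sema6d, a ligand of plexin A1 (chromosome 2, 124610296 to 124667770), rose 1.82-fold. Its level was 37.8, 35.5 and 40.1 CPM without stretch and 77.6, 60.9 and 67.9 CPM with stretch, with a log2 change of 0.86 ± 0.089 (edgeR adjusted p = 0.000178). Every stretch library lay well above every control library.

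Sema6a, a ligand of plexins A2 and A4 (chromosome 18, 47245254 to 47368868), moved the other way. CPM values were 105, 79.2 and 93.6 in control and 34.2, 47.8 and 38.5 in stretch libraries, a 2.31-fold fall with a log2 change of -1.21 ± 0.14 (edgeR adjusted p = 0.000252). Sema6b (chromosome 17, 56123085 to 56140343), the most abundant of classes 4 to 7 at 15.03 RPKM, fell 1.44-fold, from 74.6, 70.5 and 82.3 to 55.3, 55.4 and 47.1 CPM (log2 change -0.53 ± 0.080, edgeR adjusted p = 0.0011). The scarce Sema6c (chromosome 3, 95164374 to 95173316) was at 1.12, 1.601 and 1.63 CPM without stretch and 0.609, 0.604 and 0.907 CPM with stretch, a log2 change of -1.03 ± 0.28 (edgeR adjusted p = 0.0182). All 3 had stretch values wholly under the control values, but the call of Sema6c was lost without control replicate 3 or 4 or stretch replicate 2 (adjusted p = 0.0566, 0.0607 and 0.0523) and with the replicate block (adjusted p = 0.0696).

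The make-up of the membrane-bound semaphorins differed between the groups. Sema6d took 9.88 ± 0.0702% of the summed RPKM of classes 4 to 7 in control and 21.3 ± 2.18% in stretch libraries, Sema6a 22.98 ± 2.73% and 11.9 ± 2.39%, and Sema6b 32.6 ± 0.588% and 26.8 ± 1.22% (mean ± SD, n = 3 per group). The ratio of Sema6d to Sema6a RPKM, which does not depend on library scaling, was 0.378, 0.473 and 0.451 in control and 2.39, 1.34 and 1.86 in stretch libraries, so that Sema6a led in each control and Sema6d in each stretch library. Sema4b and Sema4c, a ligand of plexin B2, were at 6.63 and 8.94 RPKM and did not pass (edgeR adjusted p = 0.376 and 0.321). Both passed with the replicate block, Sema4b as higher and Sema4c as lower (adjusted p = 0.0103 and 0.00396), and Sema4b also without control replicate 3 (adjusted p = 0.0165). The remaining tested members, Sema4a, Sema4d, Sema4f, Sema4g, Sema5a and Sema7a, had means of at most 1.04 RPKM and did not pass. Sema4d, a plexin B1 ligand that also acts on immune cells, had a log2 change of 0.36 ± 0.14 with groups that did not overlap (edgeR adjusted p = 0.0721). Sema4a was at 0.796, 1.09 and 1.07 CPM without stretch and 3.12, 1.13 and 0.9602 CPM with stretch, its highest value falling in stretch replicate 1, the library with the highest hepatocyte markers, and the same library had the highest Sema4g (1.79, 0.913 and 0.942 CPM in the stretch libraries). Their relation to the hepatocyte markers was not tested.

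Plexins are the main semaphorin receptors; their cytoplasmic part acts on Rap and R-Ras GTPases. All 9 were tested: 1 rose, 3 fell and 5 did not pass. Plxnd1 (chromosome 6, 115954811 to 115995005), the plexin of vascular endothelium and a receptor that has been described as a sensor of fluid flow, rose 1.40-fold. Its levels were 963, 906 and 1065 CPM without stretch and 1529, 1338 and 1242 CPM with stretch, with a log2 change of 0.49 ± 0.088 (edgeR adjusted p = 0.00259). At 135 ± 12.3 RPKM in control and 178 ± 18.4 RPKM in stretch libraries (mean ± SD, n = 3 per group) it was the most abundant plexin in every library, and its share of summed plexin RPKM was 56.2 ± 3.32% and 68.4 ± 2.11%. The groups did not overlap in either measure. RPKM values are scaled to the library total only, without TMM.

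The 3 plexins that fell were Plxnc1, Plxnb2 and Plxna4. Plxnc1, a Sema7A receptor (chromosome 10, 94790866 to 94944578), fell 1.66-fold, from 152, 135 and 113 to 77.7, 82.8 and 80.9 CPM (log2 change -0.73 ± 0.095, edgeR adjusted p = 0.000547). Its control libraries were spread more widely than its stretch libraries, and the groups stayed apart. Plxnb2, a receptor of class 4 semaphorins (chromosome 15, 89155549 to 89180788), was at 171, 171 and 157 CPM without stretch and 118, 128 and 119 CPM with stretch, a 1.37-fold fall (log2 change -0.45 ± 0.054, edgeR adjusted p = 0.000352). Plxna4, a receptor of Sema6A and Sema3A (chromosome 6, 32144557 to 32588192), was at 140.0, 134 and 133 CPM without stretch and 103, 112 and 93.4 CPM with stretch, a 1.32-fold fall (log2 change -0.40 ± 0.067, edgeR adjusted p = 0.0019). Against a minimum change of 1.2-fold Plxna4 did not pass (glmTreat adjusted p = 0.0587).

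Among the 5 that did not pass, Plxna2 and Plxna1 were abundant. Plxna2, at 33.1 RPKM the second of the plexins, was at 406 ± 20.4 CPM without stretch and 382 ± 24.4 CPM with stretch (log2 change -0.088 ± 0.061, edgeR adjusted p = 0.278), and Plxna1 at 155 ± 9.34 and 157 ± 11.4 CPM (log2 change 0.014 ± 0.066, edgeR adjusted p = 0.888; the sign turned with library sizes alone). The ligands Sema6a and Sema6d moved in opposite directions while Plxna1 and Plxna2, which encode receptors for them, did not pass. Plxna4, which encodes another Sema6A receptor, fell as Sema6a did. Plxnb1, the Sema4D receptor, was at 4.64, 5.04 and 8.204 CPM without stretch and 7.17, 9.19 and 7.89 CPM with stretch, and passed as higher only without control replicate 4 (edgeR adjusted p = 0.00751, against 0.129 with all libraries). Plxna3 and Plxnb3 were under 1 RPKM and did not pass. The coreceptor genes of the class 3 semaphorins were Nrp1, at 70.9 RPKM with a log2 change of -0.017 ± 0.064 (edgeR adjusted p = 0.854; the sign turned with RLE factors), and Nrp2, at 137 RPKM, which rose 1.19-fold (log2 change 0.25 ± 0.054, edgeR adjusted p = 0.00578) but did not pass against a minimum change of 1.2-fold (glmTreat adjusted p = 0.653).

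**Figure D2:**
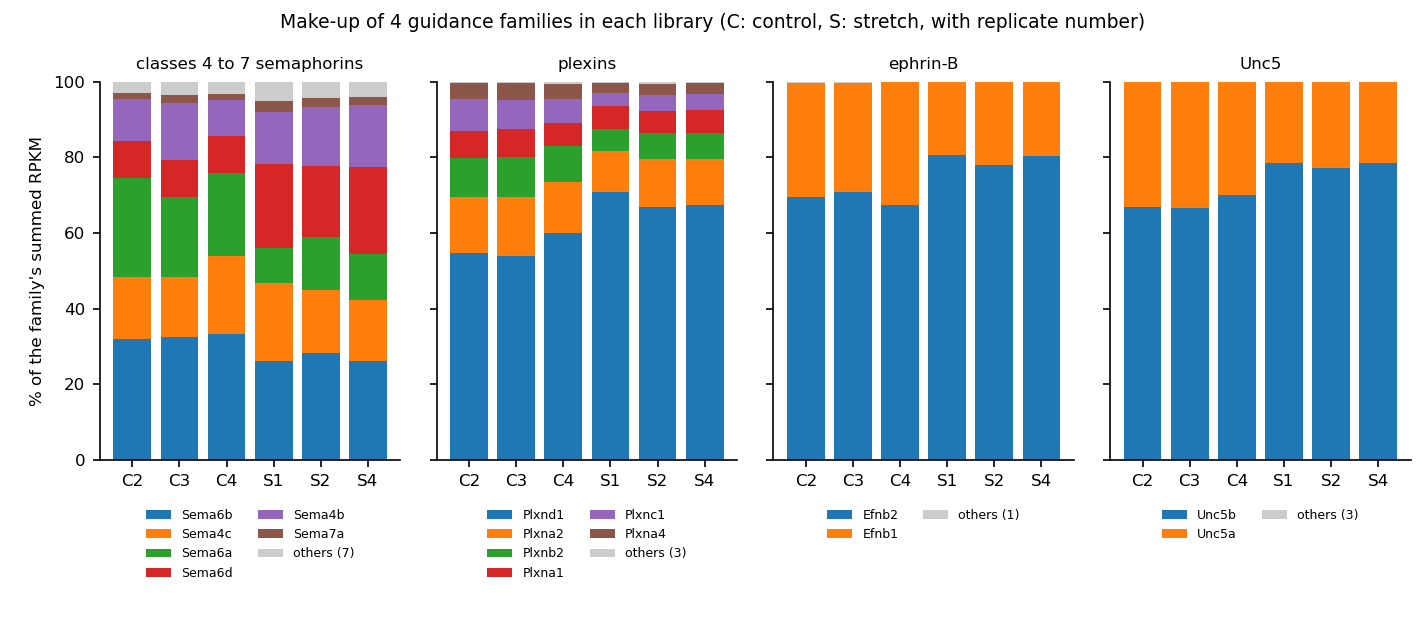
Share of each gene in the summed RPKM of its family, in percent, for classes 4 to 7 semaphorins, plexins, ephrin-B and Unc5 genes in each of the 6 libraries (C, control; S, stretch; genes under 2% on average pooled as others). In the stretch libraries Sema6d, Plxnd1, Efnb2 and Unc5b take larger shares than in any control library.

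Ephrins are membrane ligands, the A type held by a lipid anchor and the B type crossing the membrane, and Eph receptors are the largest family of receptor tyrosine kinases. Of the 5 ephrin-A genes 4 were tested, 0 rose and 1 fell. Efna1 (chromosome 3, 89271730 to 89280951), an ephrin-A gene induced by inflammatory cytokines in endothelium, made up 97.7 ± 0.565% of ephrin-A RPKM in control and 95.99 ± 0.470% in stretch libraries. It fell 1.56-fold, from 58.96, 46.6 and 60.3 CPM without stretch to 34.8, 36.6 and 34.6 CPM with stretch (log2 change -0.65 ± 0.093, edgeR adjusted p = 0.000838). The stretch libraries were close to each other and all under the lowest control library. Efna2, Efna4 and Efna5 were at 0.137, 0.366 and 0.226 RPKM and did not pass. Efna1, the untested Efna3 and Efna4 follow each other on chromosome 3 between 89271730 and 89338028.

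EphA receptors, which bind mainly A type ephrins, went up where they passed: of 9 genes 5 were tested, 3 rose, 0 fell and 2 did not pass. Epha2 (chromosome 4, 141301221 to 141329384), the chief receptor of ephrin-A1 in endothelium, took 93.7 ± 0.8101% of EphA RPKM in control and 94.7 ± 0.178% in stretch libraries. It was at 172, 184 and 175 CPM without stretch and 255, 253 and 276 CPM with stretch, a 1.48-fold rise with a log2 change of 0.56 ± 0.052 (edgeR adjusted p = 0.000117). The gap between the groups was several times the SD of either. Epha1 (chromosome 6, 42358487 to 42373268), known mostly from epithelia, rose 1.501-fold, from 4.16, 4.98 and 4.37 to 6.78, 6.27 and 7.24 CPM (log2 change 0.59 ± 0.12, edgeR adjusted p = 0.00506). The cholangiocyte markers, which are epithelial, also had a higher sum in all 3 stretch than in all 3 control libraries, and their part in the rise of Epha1 was not tested. Of the 6, 4 rose (Cldn7, Epcam, Sox9 and Spp1), beside 21.3% of all genes tested, and Krt7 and Krt19 did not pass.

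Epha7 (chromosome 4, 28813145 to 28967499), a receptor best known from the developing nervous system, had 14, 16 and 12 reads in the control libraries and 21, 66 and 61 in stretch replicates 1, 2 and 4. Its log2 fold change of 1.64 ± 0.45 was the largest rise among the members (edgeR adjusted p = 0.0184), with group means ± SD of 0.259 ± 0.0499 and 0.811 ± 0.381 CPM. The rise rested on few reads and did not pass without control replicate 2 or 4 or stretch replicate 4 (adjusted p = 0.0627, 0.0572 and 0.0605). Stretch replicate 1 lay much nearer to the control libraries than to the other stretch libraries. Epha4, which binds both ephrin types, was at 9.61 ± 2.59 and 9.77 ± 0.933 CPM (log2 change 0.022 ± 0.18, edgeR adjusted p = 0.933; the sign turned with library sizes alone), and Epha3 did not pass either (adjusted p = 0.295).

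The main ligand and main receptor of the A type moved in opposite directions. The ratio of Epha2 to Efna1 RPKM was 1.22, 1.65 and 1.21 in the control libraries and 3.07, 2.88 and 3.33 in the stretch libraries, with means of 1.36 ± 0.253 and 3.09 ± 0.224 (SD, n = 3 per group). The groups did not overlap. The genes of this and the other ratios in the text were picked after their changes were known, so the ratios carry no test.

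Among the B types the change was the reverse, with the main ligand higher and the main receptor lower. Efnb2, the arterial ephrin, rose 1.41-fold. It was at 125, 133 and 115 CPM without stretch and 171, 157 and 197 CPM with stretch (log2 change 0.49 ± 0.087, edgeR adjusted p = 0.00229), with stretch replicate 4 the highest. Efnb1 (chromosome X, 99136130 to 99148991) fell 1.24-fold, from 40.7, 41.2 and 41.97 to 30.6, 33.05 and 36.3 CPM (log2 change -0.31 ± 0.066, edgeR adjusted p = 0.00567), but did not pass against a minimum change of 1.2-fold (glmTreat adjusted p = 0.299). Efnb3 was at 0.0592 RPKM and did not pass. Efnb2 made up 69.3 ± 1.75% of ephrin-B RPKM in control and 79.7 ± 1.39% in stretch libraries.

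Of the 5 EphB receptor genes 4 were tested, 1 rose, 2 fell and 1 did not pass. Ephb4 (chromosome 5, 137350109 to 137374522), the venous receptor of ephrin-B2, accounted for 98.8 ± 0.0168% and 98.0 ± 0.3904% of EphB RPKM. It fell 1.67-fold, from 239, 221 and 239 CPM without stretch to 138, 139 and 143 CPM with stretch (log2 change -0.74 ± 0.048, edgeR adjusted p = 5.01e-05). Spread was small in both groups, the SD being 10.4 CPM without stretch and 2.34 CPM with stretch. The ratio of Efnb2 to Ephb4 RPKM was 0.527, 0.608 and 0.487 in control and 1.25, 1.15 and 1.398 in stretch libraries, so the receptor transcript led in every control library and the ligand transcript in every stretch library. A mixed list of 15 tested vessel type markers holds genes of arterial and continuous endothelium and also the venous Ephb4 itself. In it 0 rose and 2 fell (13.3%). Over all genes tested 43.8% passed. The 2 that fell were Ephb4 and Nr2f2, while arterial genes such as Gja5, Dll4 and Hey1 did not pass. A shift of vessel type was not tested. Ephb6 (chromosome 6, 41605482 to 41620507), a receptor without kinase activity, was at 1.74, 1.305 and 1.57 CPM without stretch and 0.484, 0.677 and 0.925 CPM with stretch and fell 2.21-fold (log2 change -1.15 ± 0.29, edgeR adjusted p = 0.0134); it missed the threshold without control replicate 2 (adjusted p = 0.0529).

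Ephb3 (chromosome 16, 21204795 to 21223304), known with EphB2 from sorting cells in intestinal crypts, was read 22, 30 and 19 times in the control libraries and 86, 65 and 39 times in stretch replicates 1, 2 and 4. It rose by a log2 change of 1.27 ± 0.39 (edgeR adjusted p = 0.0272), and did not pass without stretch replicate 1, where it was highest (adjusted p = 0.0835), nor without control replicate 2 or 4 (adjusted p = 0.0906 and 0.0829). Ephb2 was likewise highest in stretch replicate 1, at 1.36, 0.781 and 0.711 CPM in the stretch libraries against 0.525, 0.514 and 0.561 CPM in control, and did not pass (log2 change 0.83 ± 0.33, edgeR adjusted p = 0.0732). That library also had the highest hepatocyte markers. Of all tested members 15 were highest in it, among them Plxnd1, Sema6d and Unc5b, whose calls held without that library. The relation of Ephb2, Ephb3 and the others of these 15 to the hepatocyte markers was not tested.

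**Figure D3:**
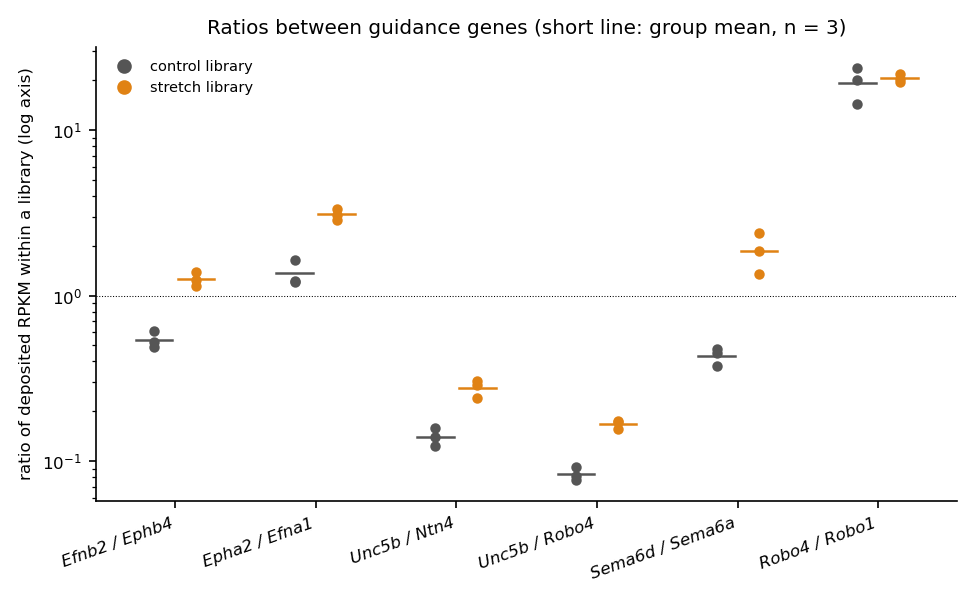
Ratio of deposited RPKM values of gene pairs within each library, on a log axis (points are libraries, short lines group means, n = 3 per group). The ratios of Efnb2 to Ephb4 and of Sema6d to Sema6a lie under 1 in every control and above 1 in every stretch library, and the ratio of Robo4 to Robo1 overlaps between the groups. The pairs were picked after the changes of their genes were known, and the place of a ratio against 1 also depends on the coding lengths used.

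Slit proteins are large secreted ligands of Robo receptors. Their transcripts were scarce: Slit2 had 10 to 51 and Slit3 15 to 77 reads in a library, neither passed (edgeR adjusted p = 0.475 and 0.922), and Slit1 was under the minimum. Of 4 Robo genes 3 were tested, 0 rose and 2 fell. Robo4 (chromosome 9, 37402046 to 37414022), the endothelial member, was the most abundant guidance gene of all in length-scaled terms at 222 ± 32.6 RPKM in control, and at 137 ± 8.77 RPKM in stretch libraries, where Plxnd1 was higher. It fell 1.52-fold, from 873, 731 and 973 CPM without stretch to 583, 578 and 528 CPM with stretch (log2 change -0.61 ± 0.098, edgeR adjusted p = 0.00143). The control libraries differed widely among themselves, and the lowest of them was still above each stretch library.

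Robo1 (chromosome 16, 72663149 to 73046100), the broadly expressed Slit receptor, fell 1.64-fold, from 89.6, 104 and 83.6 to 58.6, 54.4 and 55.8 CPM (log2 change -0.72 ± 0.080, edgeR adjusted p = 0.000247). The ratio of Robo4 to Robo1 RPKM, 14.4 to 23.9 in control and 19.4 to 21.8 in stretch libraries, overlapped between the groups. Robo3, known from commissural axons, which lies next to Robo4 on chromosome 9 (37416045 to 37433175), was at 0.306 RPKM and had a log2 change of -0.64 ± 0.31. It did not pass with all libraries (edgeR adjusted p = 0.127), and passed as lower without stretch replicate 4 (adjusted p = 0.0356).

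Netrins are laminin-like secreted proteins. Of 4 netrin genes 3 were tested, 0 rose and 1 fell. Ntn4 (chromosome 10, 93641049 to 93745972), a netrin of basement membranes that binds laminin, made up 98.7 ± 0.0668% of netrin RPKM in control and 98.2 ± 0.313% in stretch libraries and was the third most abundant member at 107 RPKM. It fell 1.48-fold, from 352, 313 and 328 CPM without stretch to 216, 244 and 210.1 CPM with stretch (log2 change -0.57 ± 0.069, edgeR adjusted p = 0.000378). Ntn1, the classical ligand of Unc5 receptors and DCC, was at 8.64 ± 0.774 and 8.405 ± 1.48 CPM (mean ± SD, n = 3 per group; log2 fold change -0.040 ± 0.14, edgeR adjusted p = 0.841), and its sign changed when single libraries were left out. Ntn3 did not pass (adjusted p = 0.341), and 1720 bases of its span are shared with the much more abundant Tbc1d24. The netrin receptor gene Dcc had no read in any library, where 3 reads, the limit that a count of 0 allows, would be 0.0442 to 0.0593 CPM.

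Unc5 receptors bind netrins and FLRT proteins. Of 5 rows 2 were tested, and they moved in opposite directions. Unc5b (chromosome 10, 60762595 to 60831581), the vascular member, rose 1.33-fold, from 106, 106 and 126 CPM without stretch to 159, 144 and 146 CPM with stretch (log2 change 0.41 ± 0.075, edgeR adjusted p = 0.00274). Unc5a (chromosome 13, 54949432 to 55006018), best known from neurons, fell 1.27-fold, from 35.4, 36.2 and 36.5 to 29.7, 28.4 and 26.99 CPM (log2 change -0.35 ± 0.053, edgeR adjusted p = 0.00122). In both genes the groups were apart, and neither passed against a minimum change of 1.2-fold (glmTreat adjusted p = 0.0611 and 0.106). Unc5b made up 67.8 ± 1.902% of Unc5 RPKM in control and 78.1 ± 0.6805% in stretch libraries. Set against Robo4, which the Unc5B protein can bind, the RPKM ratio of Unc5b to Robo4 was 0.0762, 0.0916 and 0.0811 in control and 0.172, 0.156 and 0.174 in stretch libraries, and against Ntn4 it was 0.124, 0.1396 and 0.158 and 0.304, 0.242 and 0.286. Robo4 and Ntn4 were the more abundant transcripts in all 6 libraries.

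FLRT proteins are membrane proteins that bind Unc5 receptors and latrophilins on other cells. All 3 genes were tested, 0 rose and 1 fell. Flrt2 (chromosome 12, 95692226 to 95785213) had the largest called fall of the guidance genes. It was at 298, 287 and 261 CPM without stretch and 112, 121 and 113 CPM with stretch, 2.44-fold lower, with a log2 change of -1.29 ± 0.061 (edgeR adjusted p = 3.25e-05). The stretch libraries were close to each other and far under every control library. Flrt1 and Flrt3 were at 0.255 and 0.547 RPKM and did not pass (adjusted p = 0.2 and 0.754), and each lies within the span of a larger gene, Macrod1 and Macrod2. Of the FLRT receptors, the latrophilin gene Lphn2 rose 1.65-fold (log2 change 0.72 ± 0.074, edgeR adjusted p = 0.000176) and Lphn1 fell 1.32-fold (log2 change -0.40 ± 0.074, edgeR adjusted p = 0.00278). Lphn1 did not pass against a minimum change of 1.2-fold (glmTreat adjusted p = 0.0683).

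**Figure D4:**
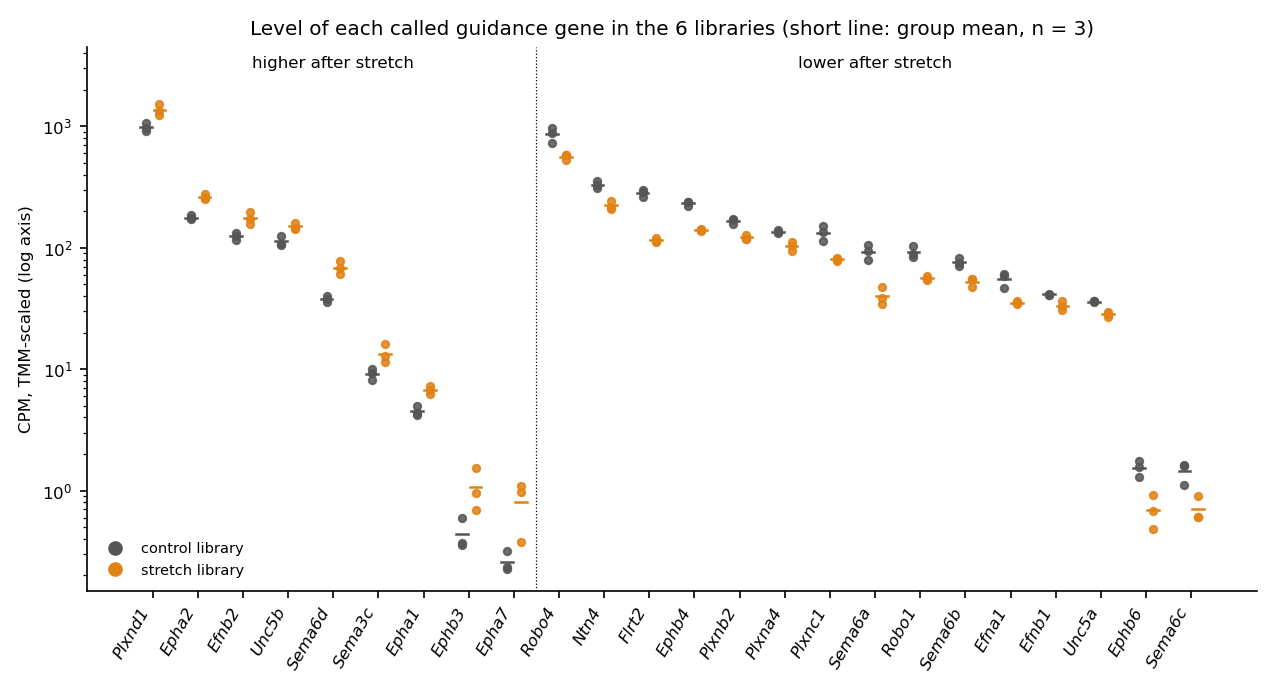
Level of the 24 guidance genes that passed, in TMM-scaled CPM on a log axis, one point per library with short lines for group means (n = 3 per group). The 3 stretch libraries lie above the 3 control libraries in the 9 genes on the left and under them in the 15 on the right, and Ephb3, Epha7, Ephb6 and Sema6c, near 1 CPM, are the scarcest.

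The 13 rows under the minimum were Efna3, Epha5, Epha6, Epha8, Epha10, Ephb1, Robo2, Slit1, Sema5b, Ntn5, Unc5c, Unc5cl and Unc5d. Epha6 and Unc5d had no read in any library, and the others had up to 32 reads over the 6 libraries (Robo2). Just inside the minimum, Epha3 had 14, 19, 8, 6, 16 and 5 reads in the control libraries and stretch replicates 1, 2 and 4; just outside it, Slit1 had 4, 4, 0, 8, 1 and 10.

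Partner genes were taken from 4 lists of coreceptors and cytoplasmic partners, 3 of which are described singly. Of 122 tested, 44 rose (36.1%), 23 fell (18.9%) and 55 did not pass, and their median log2 change was 0.085. The called share was 54.9%, beside 43.8% over all genes tested (21.3% higher and 22.5% lower). Among all genes of at least 1 RPKM it was 52.5%, and the difference was not tested. With library sizes alone 36 rose and 31 fell, beside 14.7% and 30.1% of all genes. Without stretch replicate 1, 41 rose and 19 fell, beside 18.7% and 19.6% of all genes.

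Among 31 partners of semaphorins and plexins 12 rose, 3 fell and 16 did not pass (48.4% called, beside 43.8% of all genes tested). Rnd1, a small GTPase that binds the cytoplasmic part of plexins, rose 3.31-fold, from 37.004, 32.05 and 34.6 CPM without stretch to 121, 109 and 114 CPM with stretch (log2 change 1.73 ± 0.067, edgeR adjusted p = 1.79e-05). Mical2, of a family of actin-oxidising enzymes, rose 2.12-fold (log2 change 1.08 ± 0.079, edgeR adjusted p = 6.17e-05). The small GTPase gene Rap1b rose 1.799-fold (log2 change 0.85 ± 0.072, edgeR adjusted p = 9.00e-05). Dpysl2, a collapsin response mediator of semaphorin signals, fell 1.71-fold (log2 change -0.78 ± 0.088, edgeR adjusted p = 0.000274). The other 2 that fell were Mical1, by 1.53-fold (log2 change -0.61 ± 0.065, edgeR adjusted p = 0.000194), and Arhgef11, an exchange factor bound by B class plexins, by 1.46-fold (log2 change -0.54 ± 0.057, edgeR adjusted p = 0.000191). All 3 had stretch libraries wholly under the control libraries.

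Among 35 partners of ephrins and Eph receptors 12 rose (34.3%), 9 fell (25.7%) and 14 did not pass. The shares of all genes tested were 21.3% higher and 22.5% lower. Tiam1, a Rac exchange factor, rose 5.01-fold, from 1.42, 1.305 and 0.841 CPM without stretch to 6.901, 6.48 and 4.55 CPM with stretch (log2 change 2.33 ± 0.24, edgeR adjusted p = 0.000189). Its level was low in control, and each stretch library was well above it. The phosphatase gene Ptpn11 rose 1.301-fold (log2 change 0.38 ± 0.051, edgeR adjusted p = 0.000631), and the exchange factor gene Arhgef15 1.31-fold (log2 change 0.39 ± 0.060, edgeR adjusted p = 0.00122). Itsn1, a Cdc42 exchange factor, fell 1.69-fold (log2 change -0.76 ± 0.086, edgeR adjusted p = 0.000264). The Eph adaptor gene Anks1 fell 1.31-fold (log2 change -0.39 ± 0.052, edgeR adjusted p = 0.0006), and the exchange factor gene Vav3 1.31-fold (log2 change -0.39 ± 0.061, edgeR adjusted p = 0.00138). Against a minimum change of 1.2-fold Arhgef15 and Vav3 did not pass (glmTreat adjusted p = 0.0512 and 0.0575).

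Among 32 partners of Slit, netrin and FLRT signalling 10 rose, 8 fell and 14 did not pass (56.2% called, beside 43.8% of all genes tested). Besides the latrophilins, Vasp, which promotes actin filament growth, rose 1.77-fold (log2 change 0.82 ± 0.076, edgeR adjusted p = 0.000117), and the myosin gene Myo9b 1.42-fold (log2 change 0.50 ± 0.065, edgeR adjusted p = 0.00051). Abl1, a kinase that acts on Robo receptors, fell 1.55-fold (log2 change -0.63 ± 0.050, edgeR adjusted p = 7.57e-05), and Maged1, which binds Unc5A, 1.43-fold (log2 change -0.52 ± 0.071, edgeR adjusted p = 0.000686).

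**Figure D5:**
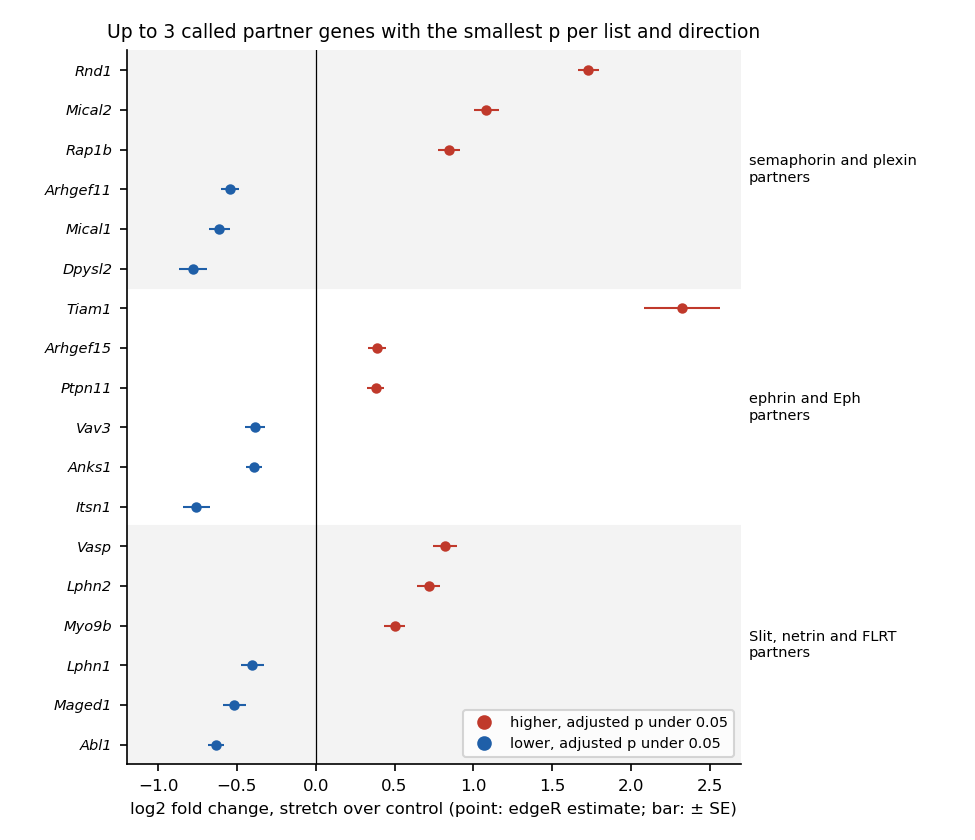
Log2 fold change of stretch over control (points, edgeR estimates; bars, ± SE) for up to 3 partner genes in each direction with the smallest p in each of 3 lists. Tiam1 and Rnd1 have the largest rises, 2.33 ± 0.24 and 1.73 ± 0.067, and Dpysl2 and Itsn1 the largest falls, -0.78 ± 0.088 and -0.76 ± 0.086.

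In the authors' deposited table, a likelihood ratio comparison of the same counts, the same 24 members passed an FDR of 0.05, 9 as higher and 15 as lower. In the deposited gene spans 8 of the 24 called members overlap other rows. For Flrt2, Ntn4, Plxnc1 and Sema6d those rows had at most 29 reads in all. For Epha1, Plxna4, Robo1 and Unc5a the rows 2010310C07Rik, B230378P21Rik, BC002163 and Hk3 had 103, 2030, 7968 and 582 reads over the 6 libraries, against 1943, 40796, 25143 and 10981 of the members. The assignment of reads in shared bases was not given in the sources used here.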

How the data were processed

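The authors deposited unnormalized gene counts of the 6 libraries. TopHat2 2.1.0, featureCounts, edgeR and the build GRCm38 (mm10) are named in the submitters' processing notes; not given in the sources used here are each tool's role, the annotation and strandedness. The deposited RPKM values divide by coding length, per the file headers, and by a total 7.41% to 8.90% above the sum of gene counts. The authors' deposited comparison table holds log2 fold changes, a likelihood ratio score and a p-value with FDR, per the file headers. Between 67.2% and 69.9% of counts from 1 to 10 were even numbers, as were 49.6% to 50.9% of counts from 1000 up, so small counts may be pairs of mates.

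The test was run with edgeR 4.0.16 (R 4.3.3; TMM scaling, at least 10 reads in 3 libraries, quasi-likelihood test for group, Benjamini-Hochberg adjustment over 14274 genes, adjusted p under 0.05). SEs come from the estimate and its F statistic (estimate over root F). CPM values carry TMM scaling. The members, partner and marker lists and pairs were chosen with earlier results of these data known. Fuller values are given for the called members of each family and direction (at most 4, by p), the most abundant member of each family, called members changed at least 2-fold, and up to 3 partners per list and direction (fold, log2 change and p, with levels for Rnd1 and Tiam1 alone); 1 of the 4 partner lists is counted in the totals but not reported here. Adgrl1, Adgrl2 and Adgrl3 are listed under older symbols (Lphn1, Lphn2 and Lphn3); Arhgap35, Tf, Ackr1 and Adgre1 were not matched, the last 2 being present as Darc and Emr1. Alternatives used RLE or upper-quartile factors, library size only, other filters, DESeq2 1.42.0, limma-voom (limma 3.58.1), glmTreat against 1.2-fold, a replicate block, and single libraries left out. The steps were tested on simulated data.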

Additional observations from a re-analysis of the deposited data

How the results depend on the processing

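Over 16 alternatives 15 of the 24 called members kept their call and direction in all, 5 more (Efnb1, Plxna4, Sema3c, Unc5a and Unc5b) lost it only with glmTreat, and 4 scarce ones (Epha7, Ephb3, Ephb6 and Sema6c) lost it when single libraries were left out, Ephb3 and Sema6c also with glmTreat and the replicate block. With glmTreat 6 of the 57 tested members passed as higher and 11 as lower, as did 19 and 9 of the 122 tested partner genes. Of the partners named in the text, Arhgef15, Vav3, Lphn1 and Nrp2 lost their calls. Over all genes tested 1211 (8.48%) passed as higher and 1326 (9.29%) as lower, against 3035 and 3217 without a minimum fold. Both groups have a replicate 2 and a replicate 4, without a label that pairs them; deviations of same-numbered libraries correlated at 0.198 and 0.104 over genes, those of other pairs at -0.198 to 0.169, so a pair of unlike numbers exceeded one of the same-numbered pairs. The replicate block compares only replicates 2 and 4 of each group, since stretch replicate 1 and control replicate 3 have no counterpart. With it 10 members passed as higher and 17 as lower, 35 and 20 partner genes, and 2703 and 2840 of all genes (18.9% and 19.9%). Of the 33 members that did not pass, 8 passed in at least 1 alternative and 9 changed sign, as did Nrp1. With library sizes alone the log2 fold change was -0.036 for Efna2, -0.066 for Epha4, -0.0073 for Flrt3, -0.079 for Plxna1, -0.055 for Sema5a and -0.020 for Slit3. With the block it was -0.10 for Flrt3 and -0.022 for Plxna1, and with limma-voom -0.061 for Sema5a. For Nrp1 it was 0.0009 with RLE factors and with DESeq2. Leaving out single libraries gave ranges of Efna2 (-0.28 to 0.35), Epha4 (-0.15 to 0.25), Flrt3 (-0.029 to 0.27), Ntn1 (-0.16 to 0.091), Plxna1 (-0.038 to 0.064), Sema3b (-0.057 to 0.37), Sema3e (-0.30 to 0.033), Sema5a (-0.52 to 0.27), Slit3 (-0.38 to 0.57) and Nrp1 (-0.073 to 0.046). Why these turned was not tested.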

Other observations

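Several scarce members varied between libraries of 1 group more than between the groups. Slit3 had 15 reads in control replicate 2 and 77 and 60 in control replicates 3 and 4, beside 68, 67 and 47 in the stretch libraries. Sema5a was read 237 times in stretch replicate 2, and 77 and 85 times in stretch replicates 1 and 4, against 91 to 136 times in the control libraries. Plxna3, the plexin receptor of Sema3F, had 107 reads in stretch replicate 2 and 36 to 51 in the other 5 libraries. Sema4a had 174 reads in stretch replicate 1 and 47 to 77 elsewhere.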
